A study of Mus musculus with 9 samples.

Results

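Mast cells are tissue-resident cells of the haematopoietic lineage that arm themselves with IgE. Their high-affinity IgE receptor, FcεRI, is assembled from an α chain that binds IgE (*Fcer1a*), a β chain that amplifies the signal (*Ms4a2*) and a γ chain that signals and is shared with other Fc receptors (*Fcer1g*). Their granules hold histamine, made by histidine decarboxylase (*Hdc*), and proteases that include carboxypeptidase A3 (*Cpa3*), the chymases encoded by *Cma1* and *Mcpt4* and the tryptase encoded by *Tpsb2*. They depend on the receptor for stem cell factor (*Kit*), and connective tissue mast cells carry Mas-related G protein-coupled receptors, among them *Mrgprb1*. *Fcer1a*, *Ms4a2*, *Cpa3* and *Hdc* are also used by basophils, and *Kit* by melanocytes and by haematopoietic progenitors.

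These 9 genes, of the 27179 in the count table, were selected by symbol and were chosen from their measured values in the comparison described here, so that their differences between genotypes are given as a description and without a test. Poly(A) RNA was measured in whole mandibles of male C57BL/6 mice aged 6 months, 5 of them wild type (WT) and 4 labelled *FcγRIIB*-/-, a germline deletion of the inhibitory IgG receptor on the same background that is used as a model of lupus. Each library came from 1 mouse, and library totals were 24158960 to 26787359 counts in WT and 21453880 to 28991631 in the mice labelled *FcγRIIB*-/-. Genes that mark bone matrix and bone cells summed to 27812 to 43691 CPM (counts scaled to the size of each library) in WT and to 29715 to 41102 CPM in the other genotype, so the labelled tissue was present in every library. Transcripts of the targeted gene itself, *Fcgr2b*, were at 24.0 ± 8.28 CPM in WT (SD, n = 5) against 27.8 ± 2.90 CPM (SD, n = 4), a log2 fold change of 0.21 (SE 0.20) that did not pass edgeR's quasi-likelihood test (adjusted p = 0.442). WT replicate 2 was the highest of all mice for *Fcgr2b*, and without it the gene was higher in the mice labelled *FcγRIIB*-/- (log2 fold change 0.46, adjusted p = 0.0131, edgeR). Which part of the gene the counts came from cannot be seen from totals per gene, and a direction given below is a direction between the libraries as they are labelled.

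The stretch just before the transcription start is shown for 5 of the genes because a GATA motif, the binding letters of the GATA factors that act in mast cells, was present in some members and not in others, of which *Kit* is shown as the example. The sequences are the 250 bases before the start of the promoter entry in build GRCm38.p6, written 5′ to 3′ on the strand of the gene. The GATA motif (AGATAA or TGATAA on either strand) is in capitals.
*Fcer1a*, chr1:173227230-173227479, minus strand: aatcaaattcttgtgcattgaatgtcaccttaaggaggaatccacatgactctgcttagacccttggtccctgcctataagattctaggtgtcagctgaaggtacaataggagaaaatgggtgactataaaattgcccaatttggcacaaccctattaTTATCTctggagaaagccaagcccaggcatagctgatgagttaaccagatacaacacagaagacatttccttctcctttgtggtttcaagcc
*Ms4a2*, chr19:11623720-11623969, minus strand: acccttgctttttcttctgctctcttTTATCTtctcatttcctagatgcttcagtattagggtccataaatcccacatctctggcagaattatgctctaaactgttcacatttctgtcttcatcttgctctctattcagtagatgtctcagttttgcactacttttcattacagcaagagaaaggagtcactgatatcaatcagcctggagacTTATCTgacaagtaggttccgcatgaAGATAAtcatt
*Cpa3*, chr3:20242182-20242431, minus strand: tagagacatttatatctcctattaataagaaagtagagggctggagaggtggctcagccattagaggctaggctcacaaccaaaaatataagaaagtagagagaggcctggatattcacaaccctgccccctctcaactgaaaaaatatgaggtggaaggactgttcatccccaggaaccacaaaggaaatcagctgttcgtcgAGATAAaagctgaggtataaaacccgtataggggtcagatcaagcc
*Mcpt4*, chr14:56062311-56062560, minus strand: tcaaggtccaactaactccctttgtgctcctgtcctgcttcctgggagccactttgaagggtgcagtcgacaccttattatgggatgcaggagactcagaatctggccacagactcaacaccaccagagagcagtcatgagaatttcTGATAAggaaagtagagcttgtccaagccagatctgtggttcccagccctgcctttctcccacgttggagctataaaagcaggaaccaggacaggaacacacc
*Kit*, chr5:75574737-75574986, plus strand: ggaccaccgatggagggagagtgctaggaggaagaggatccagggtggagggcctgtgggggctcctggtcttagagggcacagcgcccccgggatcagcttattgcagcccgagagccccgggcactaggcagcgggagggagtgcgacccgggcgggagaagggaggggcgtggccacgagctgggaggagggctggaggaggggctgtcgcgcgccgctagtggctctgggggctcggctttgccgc
The IgE-binding chain carried 1 match, 92 bases before its start, and *Ms4a2* carried 3, of which the nearest lay 11 bases before the start. *Cpa3* held its match 46 bases before the start and *Mcpt4* 103 bases before it. The windows of *Cma1*, *Hdc*, *Kit* and *Mrgprb1* held none, so that 4 of the 8 members with an entry had the motif, against 16.6% of 32851 mouse promoters of the same length. An E-box (CACGTG or CATGTG on either strand), the letters bound by MITF and related factors, was found before *Fcer1a* and before no other of the 8, against 17.6% of all promoters. The start of an entry need not be the outer end of the gene. Part of the windows of *Fcer1a*, *Ms4a2* and *Cpa3* and the whole window of *Hdc* lay inside the RefSeq span of the gene. The *Ms4a2* matches 37 and 11 bases before the start lay in that part. A match is a string of letters and does not show that a factor binds there.

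*Fcer1a*, the IgE-binding chain, showed the largest difference of the 8 members that passed the filter on low counts. Its raw counts were 19, 31, 16, 25 and 30 in the WT mice and 2, 1, 2 and 1 in the mice labelled *FcγRIIB*-/-. On the CPM scale these were 0.688, 1.24, 0.617, 0.918 and 1.17 in WT and 0.0701, 0.0462, 0.0847 and 0.0507 in the other genotype. Every WT mouse lay above every mouse labelled *FcγRIIB*-/-, and the lowest WT mouse stood well clear of the highest of the other group. The fitted log2 fold change was -3.75 (SE 0.40). The pooled ratio, 121 counts against 6, was 14.4 with a 95% counting interval of 6.41 to 39.9, which covers counting error only. *Fcer1a* passed the filter through its WT counts alone, and a gene so low in 1 group could pass in no other way. In bulk tissue, fewer mast cells and less of a transcript in each mast cell cannot be told apart, here or for any gene below.

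*Ms4a2*, the amplifying β chain, gave fewer counts still and did not pass the filter. It had 7, 7, 8, 4 and 23 counts in the WT mice, and 1, 0, 0 and 0 in the mice labelled *FcγRIIB*-/-. All 5 WT libraries were above all 4 of the others, with WT replicate 5 the highest. The ratio of the pooled counts, 49 against 1, was 34.9, with a counting interval from 5.98 to 1406 that shows how little a single count can fix. The γ chain *Fcer1g*, which is no member and which many myeloid cells use, was far more abundant and fell by 1.04 on the log2 scale (SE 0.18, adjusted p = 0.00235, edgeR), from 32.0 ± 6.66 to 15.5 ± 3.56 CPM.

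*Fcer1a* and *Fcer1g* share chromosome 1 with *Fcgr2b*. In RefSeq on build mm10, *Fcgr2b* spans chr1:170960558-170976071, *Fcer1g* starts 0.254 Mb from it at chr1:171229572-171234349, and *Fcer1a* lies 2.25 Mb away at chr1:173221269-173227232. A stretch of DNA around a targeted gene can stay with the allele through backcrossing, and whether the strain of that stretch has a part in the *Fcer1a* values was not tested. *Ms4a2* is on another chromosome (chr19:11615517-11623790).

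Among the granule proteases, *Cpa3* differed most. This carboxypeptidase, stored with the chymases, had 5.04, 9.19, 5.86, 7.86 and 7.26 CPM in the WT mice and 1.61, 1.57, 1.69 and 1.37 CPM in the mice labelled *FcγRIIB*-/-, from 920 counts in all against 147. The 4 low values were close together and none came near a WT value. Its log2 fold change was -2.17 (SE 0.20).

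The chymases and the tryptase moved by less. *Mcpt4* had 5.33, 9.67, 8.48, 9.14 and 6.52 CPM in WT and 2.73, 3.51, 2.75 and 2.43 CPM in the other genotype (log2 fold change -1.45, SE 0.20). *Cma1* had 3.88, 6.62, 6.63, 7.12 and 3.83 CPM in WT and 2.52, 2.87, 2.67 and 1.17 CPM in the mice labelled *FcγRIIB*-/- (log2 fold change -1.27, SE 0.29). The groups did not overlap for either chymase, but WT replicates 1 and 5 came close to the highest of the other group for *Cma1*. *Tpsb2*, the tryptase, had 7.28, 11.0, 8.06, 9.54 and 8.04 CPM in WT and 3.36, 3.65, 2.63 and 2.58 CPM in the other genotype (log2 fold change -1.52, SE 0.17). Its WT and labelled *FcγRIIB*-/- mice were separated by a wide gap, and WT replicate 2 was highest, as it was for *Cpa3* and *Mcpt4*.

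*Hdc*, which makes histamine, had 6.20, 9.91, 5.20, 6.61 and 12.9 CPM in WT and 2.59, 3.19, 3.35 and 1.37 CPM in the mice labelled *FcγRIIB*-/-. WT replicate 5 was the highest for this gene, as it was for *Ms4a2*, and the groups did not overlap (log2 fold change -1.63, SE 0.32). *Mrgprb1*, the Mas-related receptor, had 33, 45, 32, 59 and 29 counts in WT and 9, 9, 13 and 4 in the other genotype. That gave 1.51 ± 0.457 CPM (SD, n = 5) against 0.371 ± 0.148 CPM (SD, n = 4), with no overlap and a log2 fold change of -2.0 (SE 0.33).

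*Kit*, the stem cell factor receptor, stood apart from the other members. It had 51.6, 48.6, 66.6, 50.4 and 60.9 CPM in WT and 57.7, 47.3, 57.3 and 50.2 CPM in the mice labelled *FcγRIIB*-/-. The 2 groups overlapped, although WT replicates 3 and 5 lay above every mouse labelled *FcγRIIB*-/-, with means of 55.6 ± 7.76 and 53.1 ± 5.20 CPM and a log2 fold change of -0.07 (SE 0.11). Its pooled count ratio of WT to the other genotype was 1.04 (counting interval 1.0 to 1.07). Melanocyte genes other than *Kit*, at 2.46 to 6.90 CPM in sum in WT and 5.68 to 7.71 in the mice labelled *FcγRIIB*-/-, overlapped between the genotypes. Stem and progenitor genes, a list that includes *Kit* itself, summed to 282 to 313 and 230 to 259 CPM. How much of the *Kit* signal came from mast cells was not tested.

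**Figure D1:**
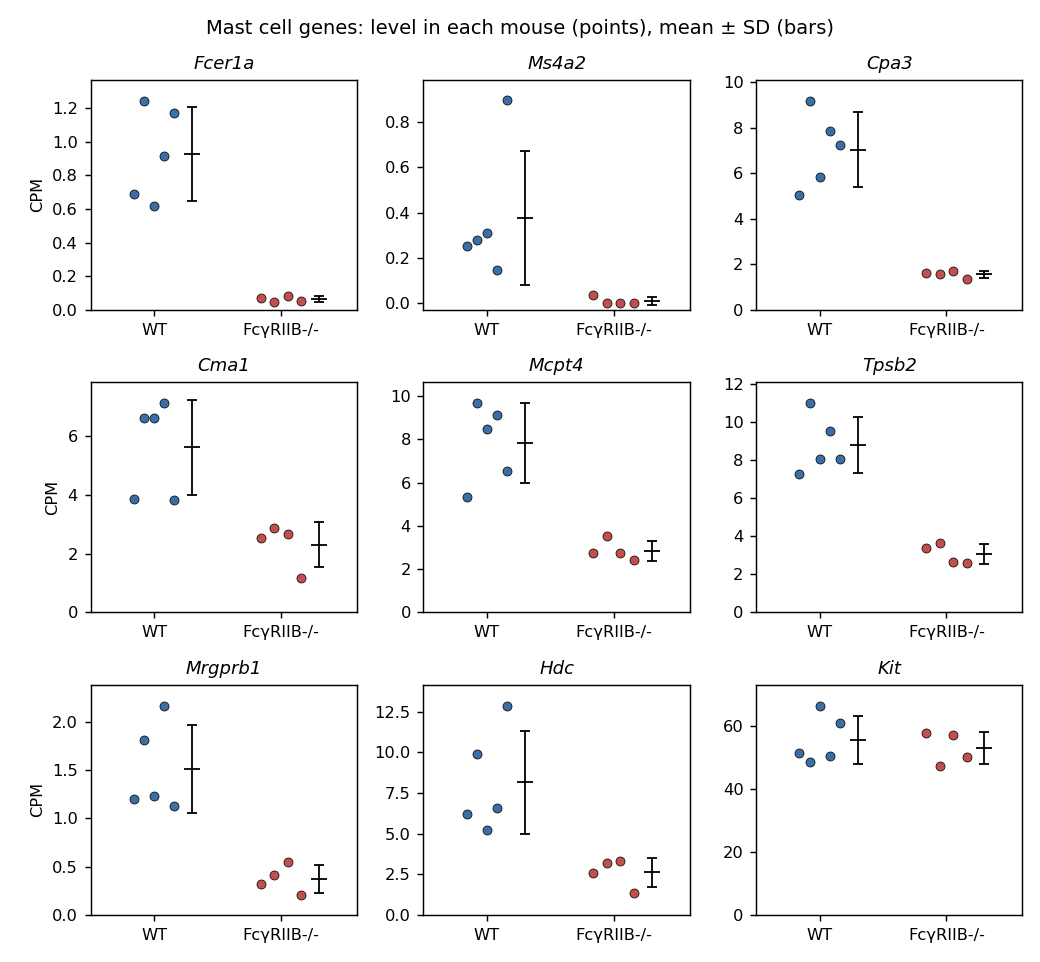
CPM of the 9 mast cell genes in each mouse, with 1 panel per gene, each with its own scale. The vertical axis starts at 0, except for *Ms4a2*, where it starts just below 0. The 5 WT mice are on the left of each panel and the 4 mice labelled *FcγRIIB*-/- on the right. Points are mice and bars are mean ± SD; in every panel but that of *Kit* the WT points all lie above the others.

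Of the 8 members tested, 7 were called lower in the mice labelled *FcγRIIB*-/-, where 19.3% of all 16329 genes tested were called lower and 14% higher at an adjusted p under 0.05. In the same 7, and in *Ms4a2*, all WT values lay above all values of the other genotype, which held for 17.5% of all genes tested, while 12.1% showed the opposite separation. Since these differences chose the members, nothing is read from those counts. In the middle of the 8 stood a log2 fold change of -1.57 (their median), against 0.01 for all genes tested. Without *Kit*, the members summed to 29.9 to 49.7 CPM in WT and to 9.17 to 15.3 CPM in the mice labelled *FcγRIIB*-/-. In the 9 fits that each omitted 1 mouse, log2 fold changes were -3.91 to -3.61 for *Fcer1a*, -2.25 to -2.04 for *Cpa3* and -0.11 to 0.02 for *Kit*, given as a description of the same values that chose the members.

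Levels of different genes can be compared only per length. Per kilobase of exon (GENCODE M21, since the annotation used for counting is not named), the WT order was *Mcpt4* (7.06 ± 1.66 CPM per kb), *Kit* (6.24 ± 0.871), *Tpsb2* (5.51 ± 0.931), *Cma1* (5.15 ± 1.49) and *Cpa3* (4.64 ± 1.08). Neighbours among these 5 differed by less than the SD between mice. *Hdc* (1.28 ± 0.497) and *Fcer1a* (0.929 ± 0.280) followed, again within their spread of each other, and *Mrgprb1* (0.360 ± 0.109) and *Ms4a2* (0.134 ± 0.106) were lowest. In the mice labelled *FcγRIIB*-/-, *Kit* led at 5.96 CPM per kb, above *Mcpt4* at 2.58, *Cma1* at 2.12, *Tpsb2* at 1.92 and *Cpa3* at 1.03, and *Fcer1a* was at 0.0631.

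The members also differed in how far they departed from the tryptase, which was taken as a reference within each mouse. *Fcer1a* had 7.66 to 14.6 counts per 100 counts of *Tpsb2* in WT (median 9.62) and 1.27 to 3.23 in the mice labelled *FcγRIIB*-/- (median 2.02), without overlap. *Cpa3* had 69.2 to 90.3 per 100 (median 82.3) against 43.0 to 64.5 (median 50.4), also without overlap. *Ms4a2* likewise did not overlap, at 1.54 to 11.2 against 0 to 1.04. These 3 were therefore lower relative to tryptase as well as relative to the whole library.

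The chymases overlapped between the genotypes in their proportion to tryptase, which was not tested. *Mcpt4* had 73.1 to 105 counts per 100 of *Tpsb2* in WT (median 88.0) and 81.2 to 105 in the other genotype (median 95.2). *Cma1* had 47.6 to 82.3 (median 60.2) against 45.1 to 102 (median 76.7). *Hdc* (64.6 to 160 against 52.9 to 127) overlapped too. *Mrgprb1* (14.1 to 22.7, median 16.4, against 7.84 to 21, median 10.4) overlapped only through *FcγRIIB*-/- replicate 3. *Kit* went the opposite way, at 442 to 826 counts per 100 of *Tpsb2* in WT and 1296 to 2182 in the mice labelled *FcγRIIB*-/-. *Mcpt8*, a protease that marks basophils, had 23.5 to 51.2 per 100 of *Tpsb2* in WT and 0 to 21 in the other genotype. Of the genes set against tryptase here, *Fcer1a*, *Ms4a2*, *Cpa3* and *Mcpt8* lay lower without overlap. The members were chosen from this contrast and the ratio was not taken over all genes, so nothing is read from that number. *Hdc*, which basophils also use, overlapped, and *Mrgprb1*, a receptor of connective tissue mast cells, had a lower median. The part of basophils in these ratios was not tested.

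**Figure D2:**
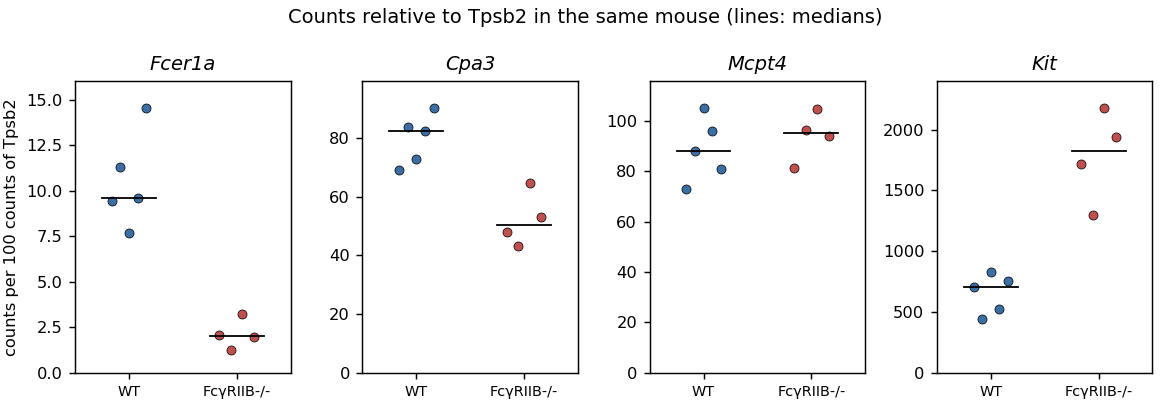
Counts of *Fcer1a*, *Cpa3*, *Mcpt4* and *Kit* per 100 counts of *Tpsb2* in the same mouse, 1 panel per gene with its own scale starting at 0. Points are mice and lines are medians. *Fcer1a* lies at 7.66 to 14.6 in the WT mice and at 1.27 to 3.23 in the mice labelled *FcγRIIB*-/-. *Cpa3* also lies lower in the latter, *Mcpt4* overlaps and *Kit* lies higher.

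Over the 9 mice, the pair whose ratio varied least among the 36 pairs of members was *Mcpt4* and *Tpsb2*, a chymase and a tryptase of the same granule, with an SD of their log2 ratio of 0.176. *Cma1* and *Mcpt4*, chymases of the same cluster on chromosome 14, followed at 0.304, and *Cpa3* and *Mrgprb1* at 0.342. *Fcer1a* varied least against *Cpa3* among the members (0.401) and most against *Kit* (1.48). Of 14966 genes with a mean log2 CPM of at least 0, those whose ratio to *Fcer1a* varied least were *Tent5c* (SD 0.127), *Tubb1* (0.250), *F630028O10Rik* (0.280) and *Fcho1* (0.342). *Tubb1*, a platelet and megakaryocyte tubulin, is known from another blood lineage. Their log2 fold changes were -2.85, -3.08, -2.65 and -2.56 in that order, and *Cpa3* ranked 13th. A small SD here mostly reflects a like difference between the genotypes, and the prior count of 2 added before taking logs shrinks the low values of *Fcer1a*.

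The tryptases, chymases and Mas-related receptors have close copies. *Cma1* (chr14:55941451-55944675) and *Mcpt4* (chr14:56059744-56062310) lie within a run of 7 listed protease genes over 161 kb, and *Tpsb2* (chr17:25366308-25368096) shares a stretch of 31.2 kb with 2 other tryptase genes. Of the windows of 75 bases in their transcripts, 1.22% of those of *Ms4a2*, 1.67% of those of *Cma1* and 2.51% of those of *Mcpt4* were found in another gene, and none of those of *Fcer1a*, *Cpa3*, *Tpsb2*, *Hdc*, *Kit* or *Mrgprb1*. How reads that fit several genes were counted is not given in the sources used here.

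The copies themselves gave few counts. *Tpsab1*, the second mast cell tryptase, had 14, 23, 6, 3 and 14 counts in the WT mice and 3, 6, 5 and 5 in the others, which overlapped. *Mcpt2*, a chymase of mucosal mast cells, had 3, 56, 3, 4 and 6 counts in WT and 0 in all 4 mice labelled *FcγRIIB*-/-, and its WT sum rested on replicate 2. *Mcpt1*, the other mucosal chymase, had 10, 26, 2, 3 and 1 counts against 9, 4, 1 and 4. None of these passed the filter, nor did *Tpsg1* (3 to 9 counts in WT and 1 to 5 in the other genotype) or *Mcpt9* (at most 1 count in a library), and *Mrgprb8* had no count in any library. *Mrgprb2*, the receptor through which basic peptides and several drugs activate mast cells, did pass, with 12, 23, 14, 17 and 25 counts against 8, 5, 3 and 2, and was lower (log2 fold change -1.85, adjusted p = 0.00565, edgeR).

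Another 62 genes known from mast cells were grouped by role, of which 51 were tested. In edgeR's test 26 of them were lower in the mice labelled *FcγRIIB*-/- and 1 was higher, or 26 of 51 beside the 19.3% of all genes tested that were lower, with a median log2 fold change of -0.45 beside 0.01 for all genes tested. These lists were drawn up with earlier results of the same data known, and their counts are a description. Among the other receptors, 4 of 7 tested were lower: *Fcer1g* and *Mrgprb2* as above, the adenosine receptor *Adora3* (-1.33, adjusted p = 0.0234) and the ectoenzyme *Enpp3* (-1.14, adjusted p = 0.000765), which basophils share. *Adora3* lost its call in 6 of 15 alternative settings, among them without WT replicate 1 and without replicate 1, 2 or 4 of the mice labelled *FcγRIIB*-/- (adjusted p of up to 0.0883 in edgeR). The remaining tested receptors were not called by edgeR: *Milr1* (-0.48, adjusted p = 0.129), *C3ar1* (0.03, adjusted p = 0.889) and *Il1rl1* (0.83, adjusted p = 0.449). *Il1rl1* was highest in *FcγRIIB*-/- replicate 3, at 152 CPM. The protease *Ctsg*, which neutrophils also store, was lower (-3.12, adjusted p = 0.00146).

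Of 12 tested genes for lipid mediators, amines and granule matrix, 3 were lower, a share close to the 19.3% of all genes tested. These were the 5-lipoxygenase gene *Alox5* (log2 fold change -2.03, adjusted p = 0.00115, edgeR), its activating protein *Alox5ap* (-1.21, adjusted p = 0.00121) and the cyclooxygenase *Ptgs1* (-0.89, adjusted p = 0.000686). *Srgn*, the proteoglycan core that packs proteases into granules, had a log2 fold change of -0.82 that missed the threshold (adjusted p = 0.06), and without WT replicate 2, its highest mouse, the value was -0.43 (adjusted p = 0.0705, edgeR). Without WT replicate 3 it was -0.94 and passed (adjusted p = 0.0358, edgeR). *Alox5*, *Alox5ap* and *Srgn* are also abundant in neutrophils.

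The transcription factors split. Of 10 tested, 7 were lower, with the largest differences in *Gata1* (log2 fold change -3.76, adjusted p = 0.000615, edgeR), *Ikzf1* (-2.04, adjusted p = 0.000592), *Tal1* (-1.85, adjusted p = 4.48e-05) and *Lyl1* (-1.06, adjusted p = 0.00159), all of which act in other blood lineages too. *Zeb2* (-0.48, adjusted p = 0.00791), *Stat5a* (-0.32, adjusted p = 0.0197) and *Stat5b* (-0.24, adjusted p = 0.0478) differed by less. *Stat5a* lost its call in 4 of 16 alternative settings, among them without WT replicate 1, 4 or 5, with an adjusted p of up to 0.107, and *Stat5b* lost its call in 13 of 16 alternative settings, with an adjusted p of up to 0.141.

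*Gata2* and *Mitf*, factors required in mast cells and broadly used elsewhere, were not among those called. *Gata2* was at 11.3 ± 0.937 CPM in WT and 11.5 ± 1.28 CPM in the mice labelled *FcγRIIB*-/- (log2 fold change 0.02, SE 0.10, adjusted p = 0.894, edgeR), and *Mitf* was at 15 ± 1.18 and 15.6 ± 2.18 CPM (adjusted p = 0.697). In whole mandible both have sources outside mast cells, among them endothelium for *Gata2* and osteoclasts for *Mitf*.

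Of 14 tested genes that carry the signal of FcεRI, 11 were lower. The cytoplasmic kinases *Btk* (log2 fold change -1.83, adjusted p = 0.00023, edgeR) and *Syk* (-1.15, adjusted p = 0.00198), the exchange factor *Rasgrp4* (-1.62, adjusted p = 0.000208) and the adaptor *Lat* (-1.42, adjusted p = 0.00569) were among them. Each is used by other leukocytes or platelets as well.

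Of 12 listed growth factors, cytokines and their receptors 7 were tested, with a median log2 fold change of -0.10. *Kitl*, stem cell factor itself and the ligand of *Kit*, was the 1 listed gene that was higher, at 56.0 ± 3.26 CPM in WT and 66.7 ± 4.05 CPM in the mice labelled *FcγRIIB*-/- (log2 fold change 0.25, SE 0.06, adjusted p = 0.0136, edgeR). All 4 mice labelled *FcγRIIB*-/- were above all 5 WT mice. With the replicate number as a block its adjusted p was 0.0622, and without both WT replicates 2 and 5 it was 0.0511. *Csf2rb* (-0.45, adjusted p = 0.0815), *Il33* (-0.36, adjusted p = 0.441) and *Csf2rb2* (-0.29, adjusted p = 0.272) did not pass, though *Csf2rb* did without WT replicate 3 (-0.53, adjusted p = 0.0456, edgeR). Omitting WT replicate 2 brought *Csf2rb* to -0.24 and *Csf2rb2* to -0.08, and omitting WT replicate 5 brought *Il33* to -0.07, none of which passed. *Il3* and *Il9* had no count in any library.

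**Figure D3:**
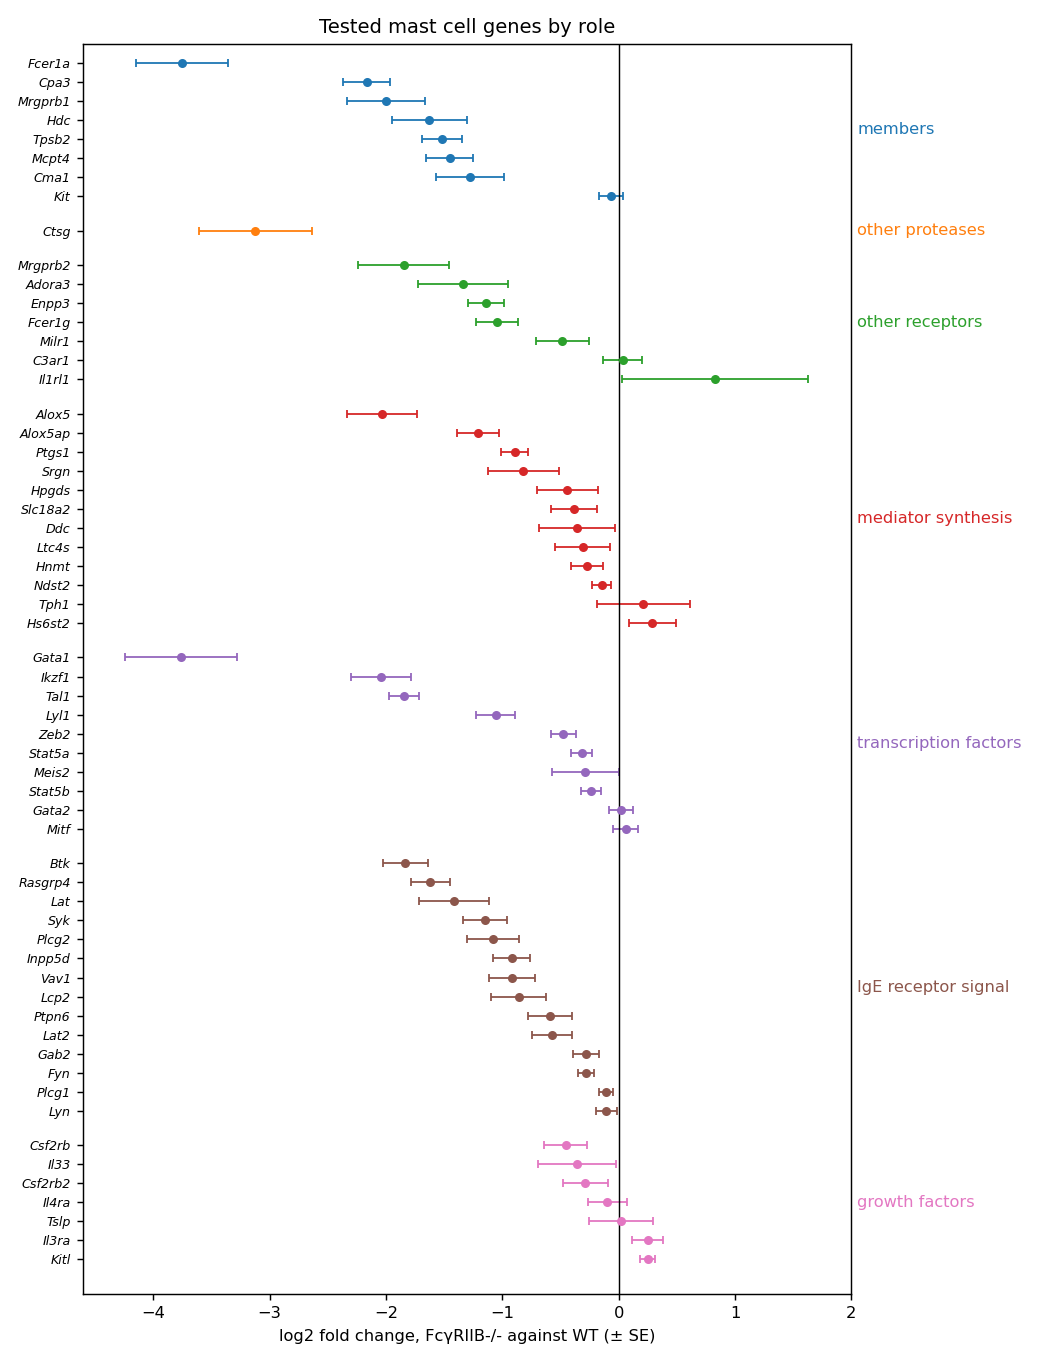
Log2 fold change (horizontal axis, mice labelled *FcγRIIB*-/- against WT, from edgeR) with its SE for each tested mast cell gene, ordered by role down the vertical axis. *Fcer1a* at -3.75 and *Gata1* at -3.76 lie farthest to the left, and *Kit*, *Gata2* and *Mitf* lie near 0.

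Markers of other cells moved with the mast cell genes. Of 5 basophil genes 3 were tested, and all 3 were lower: *Mcpt8*, with 103, 76, 67, 61 and 93 counts in WT and 14, 0, 13 and 9 in the other genotype (log2 fold change -2.99, SE 0.49, adjusted p = 0.00178, edgeR), *Prss34* (-3.14, adjusted p = 0.00319) and *Hgf* (-0.96, adjusted p = 0.0191). The list summed to 11.9 to 19.1 CPM in WT and 3.14 to 5.12 in the mice labelled *FcγRIIB*-/-, and *Mcpt8* and *Prss34* were both at 0 in *FcγRIIB*-/- replicate 2. In that library the listed basophil genes *Cd200r3* and *Hgf* had 2 and 71 counts, and the list summed to 3.37 CPM. *Fcer1a* had 1 count there, *Cpa3* 34 and *Hdc* 69, and the part of basophils in these counts was not tested.

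Lower values extended to other blood lineages. All 12 tested neutrophil genes were lower, with sums of 1378 to 3906 CPM in WT and 184 to 529 in the mice labelled *FcγRIIB*-/-, as were all 9 tested erythroid genes (1847 to 2193 against 113 to 496). Of the eosinophil genes 3 of 4 tested were lower; their sum was 4.16 to 169 CPM in WT, with the top value in replicate 5, and 0.924 to 1.99 in the other genotype, where 3 markers were at 0 in every library. Stem and progenitor genes, *Kit* among them, changed less, with 5 of 12 lower and a median log2 fold change of -0.18. The lower ones included *Gfi1b* (-3.78, adjusted p = 0.000833), *Myb* (-2.24, adjusted p = 0.000282) and *Flt3* (-1.30, adjusted p = 0.0106) by edgeR. Genes of keratinized epithelium summed to 5456 to 19790 CPM in WT, again highest in replicate 5, and to 4324 to 5419 in the other genotype. That sum hides a larger difference, since 6 of 8 tested were lower and 1 higher, with a median log2 fold change of -5.49. In the mice labelled *FcγRIIB*-/- it came mostly from *Krt5* and *Krt14*. These had means of 1618 and 2270 CPM in WT and 2122 and 2674 CPM in the other genotype. Skeletal muscle genes summed to 7074 to 16597 CPM in WT and to 16898 to 29237 in the mice labelled *FcγRIIB*-/-. The part of these differences in tissue content in the mast cell values was not tested.

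**Figure D4:**
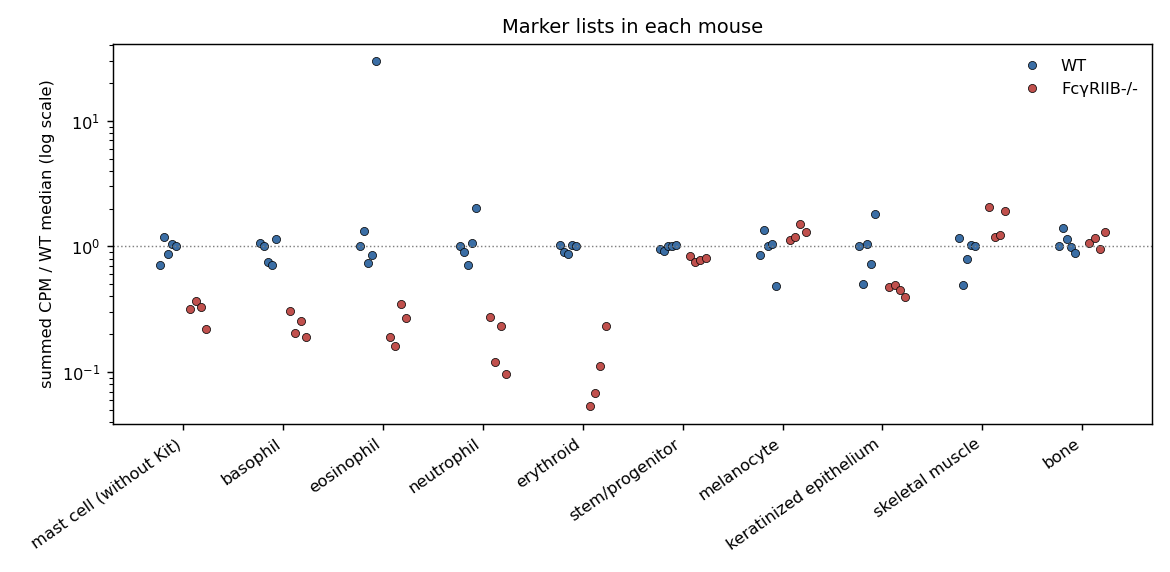
Summed CPM of each marker list in each mouse divided by the WT median of that list, on a log axis, with the mast cell members without *Kit* beside the other cell types. Neutrophil, erythroid and basophil sums lie lower in every mouse labelled *FcγRIIB*-/- than in any WT mouse, the muscle sum lies higher, and the bone sum overlaps.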

How the data were processed

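Poly(A) RNA of 9 mandibles was sequenced from directional libraries. The authors trimmed reads with Trim Galore, aligned them to mm10 with HISAT 02.1.0 and deposited raw counts per gene from featureCounts. Whether strand was used in counting, the annotation and the treatment of reads that fit several genes are not given in the sources used here. Groups and replicate numbers followed the labels, and 1 column of the table that matched no labelled sample was not used.

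Genes were filtered with filterByExpr (minimum count 10), scaled by TMM and compared with edgeR 4.0.16 (R 4.3.3) by the quasi-likelihood test, with Benjamini-Hochberg adjustment over 16329 genes and a threshold of 0.05. The SE of a log2 fold change was derived from the F statistic. CPM used TMM library sizes, and log2 CPM a prior count of 2. Intervals on pooled count ratios were exact (95%) and cover counting error only. Of the 16 pairs of libraries within a genotype, none was near-identical, and pairs across the genotypes were not compared. The script was tested on simulated counts. DESeq2 1.42.0, other scalings, filters, a fold limit, a replicate block and leaving out mice were tried as alternatives. Leaving out WT replicates 2 and 5 together was chosen after the data were seen.

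Members and lists were chosen with earlier results of these data known. The text names all members, *Fcgr2b*, up to 4 tested genes per list with the largest change, paralogs, partners, ligands and transcription factors, and the 5 genes nearest to *Fcer1a*. Of the genes this rule names, 2 are not reported here. *Il3* and *Il9*, listed growth factors without counts, and the keratins *Krt5* and *Krt14* were named after their values were seen. So were the basophil gene *Cd200r3* and the receptors *Il1rl1*, *Milr1* and *C3ar1*. Promoters and positions are from RefSeq (GRCm38), with 8 of 9 members having a promoter entry, and *Tpsb2* none.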

Additional observations from a re-analysis of the deposited data

Results flagged for a closer look

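Of 110 groups of 4 or 5 mice examined, 15 held a highest or lowest mouse that stood apart by Dixon's criterion at 95%, where chance alone sets apart about 1 group in 20. Among the members these were both groups of *Ms4a2*: WT replicate 5 at 0.898 CPM, with the other WT mice at 0.147 to 0.308, and *FcγRIIB*-/- replicate 1 at 0.0350 CPM from 1 count, with the others at 0. No group of the other 8 members held such a mouse.

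WT replicate 2 stood apart for *Fcgr2b* (38.3 CPM, others 17.0 to 23.1), *Mcpt2* (2.25 CPM, others 0.109 to 0.234), *Srgn* (121 CPM, others 39.0 to 59.1) and *Lat* (10.6 CPM, others 3.97 to 5.76), and for *Mcpt9* with 1 count (0.0401 CPM, others 0). WT replicate 5 stood apart for *Alox5* (19.9 CPM, others 7.05 to 9.02) and *Lyl1* (20.9 CPM, others 17.7 to 18.3), and WT replicate 4 for *Kitl* (61.7 CPM, others 53.4 to 55.3).

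In the mice labelled *FcγRIIB*-/-, replicate 3 was high for *Adora3* (0.424 CPM, others 0.152 to 0.185), *Srgn* (47.7 CPM, others 30.6 to 33.0) and, with 1 count, *Mcpt9* (0.0424 CPM, others 0). Replicate 1 was high for *Ctsg* (3.71 CPM, others 0.862 to 1.06) and replicate 4 for *Fcgr2b* (32.1 CPM, others 26.0 to 26.6).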

How the results depend on the processing

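Over all genes, edgeR called 2289 higher and 3144 lower. Requiring an absolute log2 fold change of at least 1 left 181 and 1069, and leaving out WT replicates 2 and 5 together left 1479 and 2066, with *Fcer1a* at -3.41. Leaving out 1 mouse at a time gave 1781 to 2292 higher and 2521 to 2771 lower, 7 members lower in each of the 9 fits and 22 to 29 other mast cell genes lower. With DESeq2 or with no filter 8 members were lower, since *Ms4a2* was then tested, and with at least 10 counts in every library 5, since fewer members were tested. The replicate numbers did not pair the mice (correlations of -0.114 to 0.0969). With the replicate block edgeR called 1594 genes higher and 2410 lower, 7 members lower, and 22 other mast cell genes lower and 0 higher, with 1 higher at an unadjusted p under 0.05. Without both WT replicates 2 and 5 that count was also 0 in edgeR, with 2 at an unadjusted p under 0.05. Of 40 single genes outside the members that were followed across settings, 28 kept direction and call in all settings in which they were tested. *Gata2* turned to -0.0063 with the replicate block, -0.015 without both WT mice and -0.049 to 0.084 without 1 mouse, *Mitf* ran from -0.037 to 0.12 without 1 mouse, and *Il33* was 0.070 without both WT mice. *Adora3* (6 settings, adjusted p up to 0.0883), *Stat5a* (4, up to 0.107), *Stat5b* (13, up to 0.141), *Kitl* (2, up to 0.0622), *Zeb2* (1, 0.0531) and *Hgf* (1, 0.0610) lost their calls, while *Srgn* (adjusted p = 0.0358) and *Csf2rb* (0.0456) gained one without WT replicate 3. The cause was not tested. The 6 counts of *Fcer1a* and 1 of *Ms4a2* in the mice labelled *FcγRIIB*-/- limit how precisely these low levels are known.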
